A study of Mus musculus with 8 samples.

Results

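The 2 RNA samples of mouse vascular smooth muscle cells (VSMC) that had received a hairpin RNA against Uhrf1 were compared with each other, gene by gene, with the cells given scrambled hairpin RNA as the level that gives each difference its direction. The 2 samples are called KD1 and KD2 here. Per the column names of the deposited table they carry the numbers shUHRF1#3 and shUHRF1#4, and the labels do not say whether these are different hairpins, cultures or RNA preparations. Each was measured on 2 Illumina bead arrays, named here its first and second array, so KD1 and KD2 are 4 of the 8 arrays and 2 of the 4 RNA samples of the series. The other 2 samples, ctr1 and ctr2, carry the scrambled hairpin (shSCR). All 4 were primary VSMC of male C57Bl6/J mice, 8 weeks old per the labels, infected with lentivirus, selected with puromycin for 2 days and harvested at day 5. Every sample therefore shares the lentivirus, the hairpin cassette and the drug. The labels give neither the number of mice behind a sample nor any pooling, so a p-value here speaks of the spread of these RNA samples and that spread may be technical.

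A probe was compared if its detection p was under 0.05 on both arrays of KD1 or of KD2, which held for 11714 of 25669 probes and for 8042 of 16582 genes with a named probe. A gene is represented by its compared probe with the highest mean signal. Levels are background-corrected, quantile-normalised log2 signals, on which 1 unit is a factor of 2, and a difference is KD1 minus KD2, given for the first arrays and then for the second arrays. Levels of different genes are read by different probes and are not set against each other.

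Uhrf1 is a chromatin protein that binds DNA methylated on a single strand just after replication and brings the maintenance methyltransferase Dnmt1 to it. It is made mainly in dividing cells. Loss of DNA methylation is known to release germline genes, endogenous retroviruses and, through them, interferon-stimulated genes in several cell types. A short hairpin RNA is processed by the cell into a small RNA that guides cleavage of matching transcripts, and different hairpins against a gene can differ in efficiency and in the other transcripts they match. VSMC in culture lose part of their contractile programme and divide.

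The arrays were compared before the samples. Each array detected 45.1% to 48.2% of its probes, and raw median signals lay between 103.4 and 123.3. Acta2, the smooth muscle actin gene, had 14.30 and 14.83 in KD1 and 14.0 and 14.70 in KD2, against 13.50, 13.38, 14.34 and 14.32 in shSCR. Tagln, which encodes the actin-binding protein transgelin, had 5.65 and 7.28 in KD1 and 5.54 and 6.99 in KD2, against 4.99, 4.82, 5.42 and 5.14 in shSCR. The late contractile genes Myh11, the smooth muscle myosin heavy chain, and Cnn1, calponin, were detected on 0 of the 8 arrays, as was Myocd, the coactivator of this programme.

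The paired arrays of KD1 and of KD2 went against their label as duplicates of 1 RNA sample. The median absolute log2 difference between the first and the second array was 0.28 in KD1 and 0.25 in KD2, against 0.14 in ctr1 and 0.14 in ctr2. A difference of 2-fold or more separated the arrays of KD1 for 389 genes (4.84%) and those of KD2 for 304 genes (3.78%), against 11 genes (0.137%) in ctr1 and 44 genes (0.547%) in ctr2. Between samples, KD1 and KD2 were 0.25 apart on the first arrays and 0.28 apart on the second. The arrays of either sample were thus about as far from each other as from the same-numbered array of the other sample. Across the 8042 genes, the first-minus-second difference correlated between KD1 and KD2 (Pearson r = 0.566, Spearman rho = 0.490). It also correlated with the ctr1-minus-ctr2 difference, which uses none of the same arrays (r = 0.538 for KD1 and 0.592 for KD2). Genes are not independent replicates, all values share the normalisation, and these r are descriptions. Il33, which encodes an alarmin cytokine and was picked after its values were seen, shows the pattern with 7.75 and 4.53 in KD1 and 9.10 and 6.50 in KD2, against 8.60, 8.82, 4.61 and 5.02 in shSCR. Fmo1, a flavin monooxygenase gene, had 8.05 and 4.96 in KD1 and 9.90 and 6.17 in KD2, against 7.64, 7.42, 4.73 and 4.51 in shSCR. For these genes the first arrays of KD1 and KD2 lay on the side of ctr1 and the second arrays on the side of ctr2. The labels give no slide, scan or culture that would account for it, and its part in the results was not tested. All differences are therefore given within an array number, first against first and second against second. The exception is the alternatives with 1 array of KD1 or KD2 left out.

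**Figure D1:**
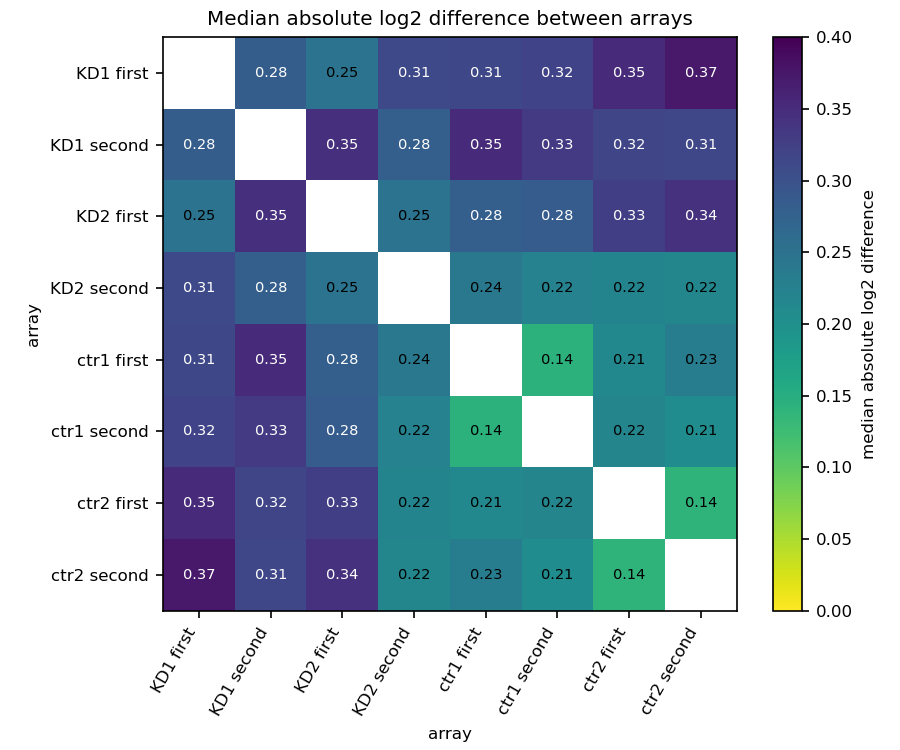
Median absolute log2 difference over 8042 genes between every pair of the 8 arrays, with KD1 and KD2 before ctr1 and ctr2 on both axes and darker cells for larger differences. The arrays of KD1 were 0.28 apart and those of KD2 0.25 apart, while those of ctr1 and of ctr2 were each 0.14 apart.

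Uhrf1, the target of the hairpins, was lower in both samples than on any shSCR array. Its level was 9.40 and 8.73 in KD1 and 8.39 and 8.58 in KD2, against 11.51, 11.53, 11.45 and 11.62 in shSCR. The 2 knockdown samples did not overlap with shSCR, and 3 of their 4 arrays lay between 8.39 and 8.73, with the first array of KD1 higher. The difference was 1.01 and 0.15, with a mean of 0.58 ± 0.22 (SE, limma, adjusted p = 0.612), so the remaining Uhrf1 was higher in KD1 on the first arrays and differed little on the second. A further Uhrf1 probe was detected on 0 of 8 arrays. Dnmt1, the maintenance methyltransferase gene, had 8.61 and 8.76 in KD1 and 9.05 and 9.29 in KD2, against 9.58, 9.46, 9.53 and 9.40 in shSCR. Both samples were below shSCR for Dnmt1, KD1 further than KD2.

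Of the 8042 genes, 27 (0.336%) were at least 2-fold higher in KD1 than in KD2 on both array pairs and 57 (0.709%) were at least 2-fold lower, together 84 (1.04%). This is a rule of size and not a test, since each hairpin number stands for 1 RNA sample. By the same rule, ctr1 and ctr2 differed in 118 genes (1.47%), 80 of them (0.995%) higher and 38 (0.473%) lower in ctr1. The median absolute difference of the sample means was 0.229 between KD1 and KD2 and 0.183 between ctr1 and ctr2, so the bulk of genes lay slightly further apart in the knockdown pair. With the first arrays alone 105 genes were at least 2-fold higher in KD1 and 151 lower, and with the second arrays alone 116 and 248. On a single pair of arrays the knockdown samples thus differed in more genes, 256 on the first and 364 on the second arrays, against 222 and 197 between ctr1 and ctr2. On the authors' processed values the rule named 1 gene higher and 6 lower in KD1, and for 69 of the 84 genes the difference was smallest there among the alternatives run. Igfbp5, at differences of 1.07 and 1.01, lay just inside the threshold, and Jun, at 0.99 and 1.0, and Dusp1, at 0.98 and 1.0, just outside. limma on the averaged arrays, with the spread taken from ctr1 and ctr2 and the prior over all probes, called 0 of 8042 genes (0.0%) at an adjusted p of 0.05, with a smallest adjusted p of 0.58. With the 8 arrays as separate samples and the array number as a block it called 39, and with the 4 shUHRF1 arrays alone and that block 77, but these fits take their spread from arrays and not from RNA samples. Without adjustment, 286 genes (3.56%) were higher and 404 (5.02%) lower in KD1 at 0.05. That fit assumes that KD1 and KD2 vary as the control samples do, and all differences below are therefore given as measured values.

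**Figure D2:**
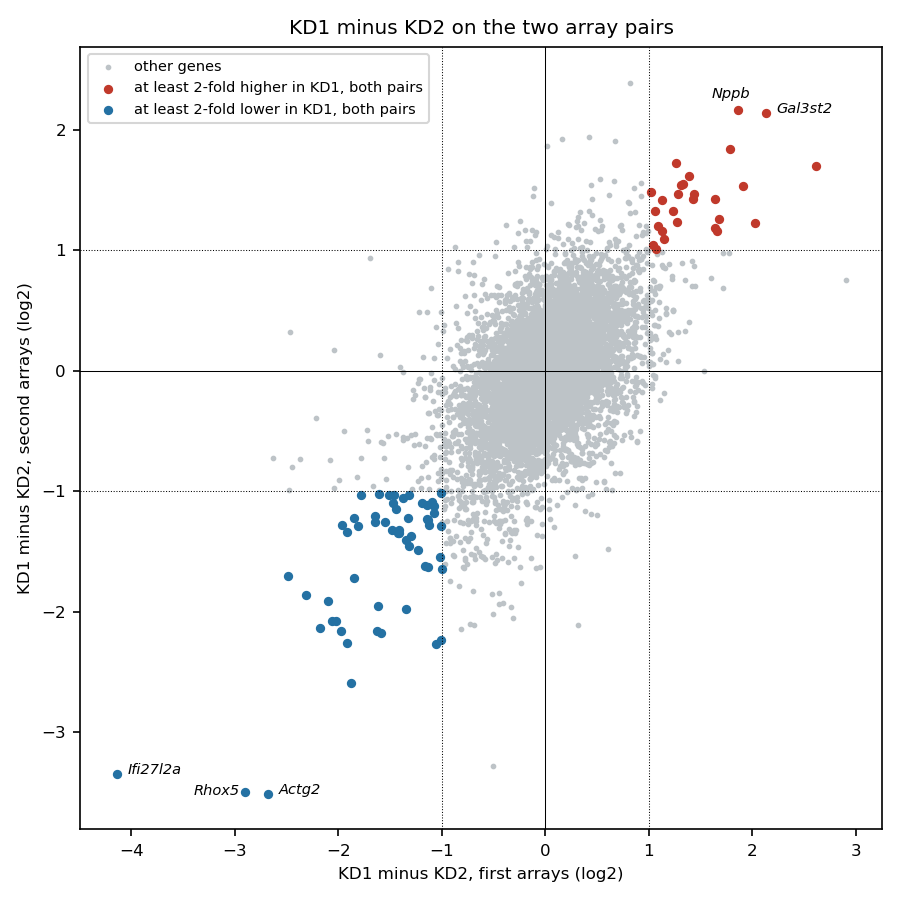
KD1 minus KD2 (log2) on the first arrays (x axis) and on the second arrays (y axis) for 8042 genes. The 27 genes at least 2-fold higher in KD1 on both pairs are red, the 57 at least 2-fold lower are blue, and the dotted lines mark 2-fold. Across genes the 2 array pairs correlated at r = 0.537.

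Genes of mitosis were lower in KD1 than in KD2. The list of kinases, kinesins and checkpoint proteins of cell division held 28 compared genes, and 28 of 28 were lower in KD1 on both array pairs, where 32.9% of all genes were. The median difference was -0.57 on the first and -1.38 on the second arrays, against 0.01 and -0.01 over all genes. Against the mean of ctr1 and ctr2, the median of the list was -0.91 and -1.48 on the KD1 arrays and -0.32 and -0.12 on the KD2 arrays. Both KD1 arrays were below all 4 shSCR arrays for 26 of the 28 genes (19.5% of all genes were), and both KD2 arrays for 13 of the 28 (14.2% of all genes). These comparisons share the shSCR arrays. The median ctr1-minus-ctr2 difference of the list was -0.04, close to 0. Of the 28 genes, 24 had an unadjusted limma p under 0.05 and 0 passed after adjustment.

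The member past the 2-fold rule was Cdc25b, a phosphatase that activates the mitotic kinase, with 5.92 and 5.66 in KD1 and 7.40 and 6.98 in KD2, against 7.68, 7.31, 7.0 and 7.15 in shSCR. It was the single member past 2-fold on both pairs, since most members were less far apart on the first arrays. The further genes of this paragraph were chosen after their values were seen. Kif11, a spindle kinesin, had 7.26 and 6.98 in KD1 and 8.18 and 8.37 in KD2, against 8.23, 8.17, 8.22 and 8.07 in shSCR. Foxm1, the transcription factor of many genes of this phase, had 7.50 and 7.28 in KD1 and 8.42 and 8.71 in KD2, against 8.30, 8.62, 8.54 and 8.41 in shSCR. Nusap1, a spindle protein, had 9.31 and 8.11 in KD1 and 9.82 and 10.14 in KD2, against 10.14, 10.31, 10.23 and 10.19 in shSCR. In Kif11 and Foxm1 the KD2 arrays lay among or just beside the shSCR arrays and the KD1 arrays below all of them, while in Nusap1 the KD1 arrays, the second above all, were the lowest of the 8. Another Nusap1 probe differed by 0.05 and -0.82, so it did not share the direction on the first arrays. Cdk1, the mitotic kinase, differed by -0.35 and -0.82 and Plk1, a kinase of spindle assembly, by -0.80 and -1.48. Outside the list, Aspm, a spindle pole protein gene, had 4.91 and 4.82 in KD1 and 6.03 and 6.09 in KD2, against 6.54, 6.52, 5.80 and 6.26 in shSCR. Esco2, an acetyltransferase of sister chromatid cohesion, had 6.48 and 5.20 in KD1 and 7.48 and 7.43 in KD2, against 7.42, 7.44, 7.37 and 7.15 in shSCR. In both genes the KD1 arrays lay below the 6 other arrays. Aspm was detected on 1 of 2 KD1 arrays and was compared through KD2 alone, which favours a lower level in KD1.

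Promoters of 3 mitosis genes are shown because many genes of this phase carry the cell cycle homology region, written TTTGAA, and a CCAAT box upstream of it. They are RefSeq windows of GRCm38.p6 upstream of the gene start, printed along the gene's strand with the TTTGAA match, on either strand, in capitals. Kif11 lies at chr19:37376323-37376381 on the plus strand, Espl1, the separase gene, at chr15:102296226-102296292 on the plus strand, and Top2a, the topoisomerase gene, at chr11:99024323-99024408 on the minus strand.
Kif11: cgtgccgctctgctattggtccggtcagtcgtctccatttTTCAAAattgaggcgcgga
Espl1: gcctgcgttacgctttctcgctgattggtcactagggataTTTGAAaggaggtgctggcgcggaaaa
Top2a: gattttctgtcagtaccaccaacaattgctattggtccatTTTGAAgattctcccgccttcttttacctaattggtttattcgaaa
On either strand of the upstream window, 9 of the 23 list genes with a promoter in the table (39.1%) held TTTGAA, against 18.3% of all genes in it. CCAAT was in 15 of 23 (65.2%), against 37.5% of genes. A match is a run of letters and no measured site. Espl1 had 6.31 and 6.60 in KD1 and 7.04 and 7.51 in KD2, against 7.46, 7.18, 7.80 and 7.56 in shSCR, and Top2a had 8.79 and 8.76 in KD1 and 9.49 and 9.69 in KD2, against 9.90, 9.91, 9.88 and 9.76 in shSCR. In both genes the KD1 arrays were the lowest of the 8.

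DNA replication genes followed in the same direction by smaller amounts. Of 41 compared genes, 34 were lower and 2 higher in KD1 on both pairs, against 32.9% and 33.6% of all genes. The medians were -0.34 and -0.63, and 0 were past 2-fold. Tk1, thymidine kinase, had 10.09 and 9.75 in KD1 and 10.85 and 10.84 in KD2, against 10.68, 10.73, 10.54 and 10.63 in shSCR. The KD1 arrays lay below and the KD2 arrays above all shSCR arrays for this gene. Rfc4, a subunit of the clamp loader, had 7.62 and 7.86 in KD1 and 8.32 and 8.65 in KD2, against 8.43, 8.89, 8.54 and 9.05 in shSCR. Another Rfc4 probe differed by 0.27 and -0.78. Rrm2, the small subunit of ribonucleotide reductase, went the other way with 8.50 and 8.44 in KD1 and 7.30 and 8.12 in KD2, against 8.63, 8.71, 9.37 and 9.22 in shSCR, and it was chosen after its values were seen. Both samples lay below shSCR for it. Ccne1, a cyclin of S phase entry, was the other gene higher in KD1 on both pairs, by 0.23 and 0.06. The site TTGGCGC, an E2F-type motif, was in 2 of 34 list promoters (5.88%), against 2.31% of genes. Among histone genes 5 of 16 were higher and 9 lower on both pairs. H4c8, a histone H4 gene whose probe may also read near-identical copies, was higher in KD1 by 2.03 and 1.23, with 8.62 and 7.80 in KD1 and 6.59 and 6.57 in KD2, against 6.25, 6.13, 6.37 and 6.26 in shSCR. Its KD1 arrays were the highest of the 8. H2ac21, a histone H2A gene outside the list, was past 2-fold the other way, by -1.02 and -1.55. It had 9.04 and 8.97 in KD1 and 10.06 and 10.51 in KD2, against 10.22, 10.44, 10.42 and 10.55 in shSCR. Genes of p53 and the kinase inhibitors, which restrain division, were higher in 16 and lower in 5 of 28, where 33.6% and 32.9% of all genes were, with medians of 0.24 and 0.23. Zmat3, a p53 target, had 8.82 and 8.70 in KD1 and 7.94 and 7.58 in KD2, against 7.84, 7.92, 7.82 and 7.80 in shSCR, and it was above all shSCR arrays in KD1 alone. Cdkn2c, a kinase inhibitor, went the other way by -0.83 and -1.13 on its brightest probe, but by -0.33 and 0.63 on another.

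Interferon-stimulated genes were lower in KD1 than in KD2, and the 2 control samples differed in them by as much. Of 24 compared genes 19 were lower and 1 was higher on both pairs, against 32.9% and 33.6% of all genes, and 0 were past 2-fold on both. The medians were -0.87 on the first and -0.47 on the second arrays. Against shSCR the list medians were 0.10 and -0.34 on the KD1 arrays and 0.99 and 0.09 on the KD2 arrays, and the median ctr1-minus-ctr2 difference was 0.70. Bst2, tetherin, which holds budding virus at the cell surface, had 7.80 and 6.97 in KD1 and 8.79 and 8.25 in KD2, against 8.17, 7.89, 7.96 and 7.19 in shSCR. Eif2ak2, the kinase that halts translation on double-stranded RNA, had 9.79 and 8.91 in KD1 and 10.79 and 10.17 in KD2, against 10.57, 10.39, 9.71 and 9.82 in shSCR. Bst2 was above all shSCR arrays in KD2, whereas KD1 overlapped them, and for Eif2ak2 both samples overlapped shSCR. Isg15, a ubiquitin-like modifier, had 7.44 and 6.06 in KD1 and 9.48 and 7.03 in KD2, against 7.83, 7.95, 5.88 and 6.05 in shSCR. Oasl2, an oligoadenylate synthetase-like gene, had 5.62 and 4.41 in KD1 and 8.09 and 5.39 in KD2, against 6.66, 6.40, 4.47 and 4.62 in shSCR. These 2 genes, chosen after their values were seen, were highest on the first array of KD2, and on the second arrays both samples lay within the range of shSCR or, for Oasl2 in KD1, just below it. Uba7, the activating enzyme for Isg15, lay past the 2-fold rule with 6.83 and 5.90 in KD1 and 8.60 and 6.93 in KD2, against 7.09, 7.02, 5.86 and 6.0 in shSCR. The gene with the largest difference by the smaller of its array pairs, Ifi27l2a, is interferon-inducible too and was not on the list. It had 5.10 and 5.13 in KD1 and 9.24 and 8.48 in KD2, against 7.48, 7.60, 6.17 and 6.64 in shSCR, a difference of -4.14 and -3.35 and a mean of 13.4-fold. KD1 lay below and KD2 above all 4 shSCR arrays. On the authors' processed values its mean difference was -1.25.

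Windows of 4 list promoters with the interferon response element are printed because the element was more frequent in this group than over all genes. It was searched as GAAA, any 2 bases and GAAA again on both strands. Only the first match in each window is in capitals, and in Bst2 and Isg15 further matches follow in lower case. The windows are from RefSeq, GRCm38.p6, along the gene's strand. Bst2 lies at chr8:71537553-71537642 on the minus strand, Isg15 at chr4:156200847-156200936 on the minus strand, Gbp2, a guanylate-binding protein gene, at chr3:142620564-142620653 on the plus strand, and Stat2, a transducer of the interferon receptor, at chr10:128270248-128270325 on the plus strand.
Bst2: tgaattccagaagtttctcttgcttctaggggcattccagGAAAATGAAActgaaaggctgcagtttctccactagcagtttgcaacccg
Isg15: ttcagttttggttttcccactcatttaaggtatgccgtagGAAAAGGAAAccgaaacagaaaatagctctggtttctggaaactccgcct
Gbp2: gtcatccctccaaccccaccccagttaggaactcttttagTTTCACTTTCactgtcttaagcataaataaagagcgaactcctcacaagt
Stat2: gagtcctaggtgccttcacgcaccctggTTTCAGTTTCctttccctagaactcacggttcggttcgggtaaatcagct
The element was in 7 of the 18 list genes with a promoter in the table (38.9%), against 3.46% of all genes. The differences of Gbp2 were -0.81 and -0.52 and those of Stat2 -0.50 and -0.52, and neither came to 2-fold on both pairs.

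**Figure D3:**
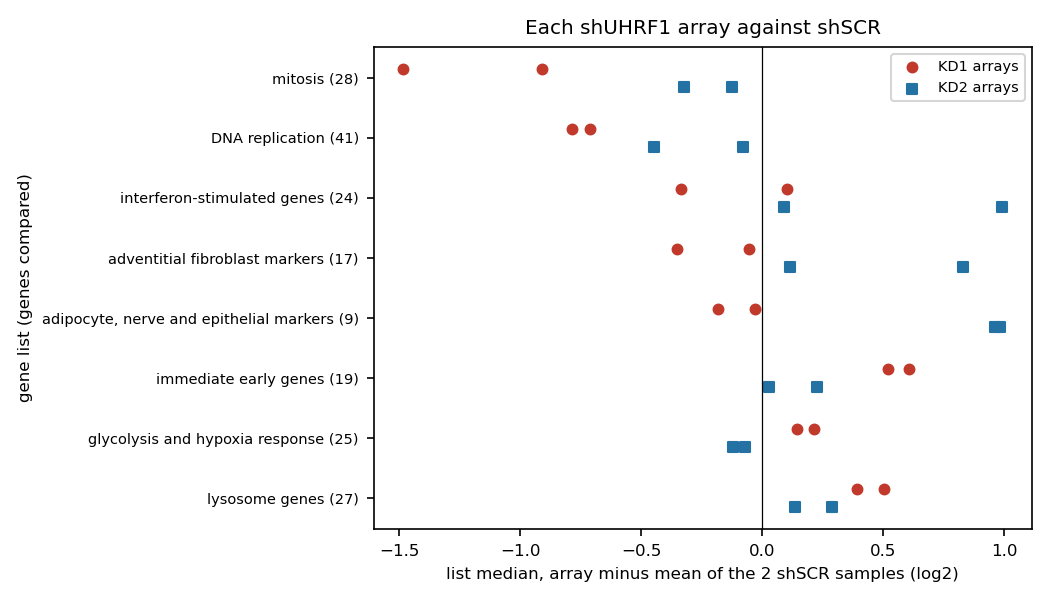
Median log2 level of 8 gene lists on each shUHRF1 array, minus the mean of the 2 shSCR samples, with KD1 arrays as red circles and KD2 arrays as blue squares. The mitosis list stood at -0.91 and -1.48 on the KD1 arrays and at -0.32 and -0.12 on the KD2 arrays, and the adipocyte, nerve and epithelial list was near 0 in KD1 and near 1 in KD2.

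Most of the compared epithelial and mesothelial markers and some genes of adventitial fibroblasts were higher in KD2. Of the 9 compared genes on the list of adipocyte, nerve and epithelial markers, 7 were lower in KD1 on both pairs (32.9% of all genes). By at least 2-fold as measured, 4 were lower (0.709% of all genes), and the list medians were -1.01 and -1.09. Of these 4, Krt18 is known only as a bound under 2-fold, which leaves 3, namely Krt8, Pparg and Lpl. Only Krt8 among them is an epithelial marker. Krt8 and Krt18 passed the detection filter through KD2 alone, which favours a lower level in KD1, so their direction adds no weight to these counts. Krt8, an epithelial keratin, had 4.54 and 4.47 in KD1 and 6.55 and 6.55 in KD2, against 5.03, 4.74, 4.33 and 4.52 in shSCR. It was detected on 0 of 2 KD1 arrays, 2 of 2 KD2 arrays and 1 of 4 shSCR arrays, and was at least 3.31-fold higher in KD2. Krt18, its partner keratin, had 4.35 and 4.43 in KD1 and 5.86 and 5.46 in KD2, against 4.24, 4.33, 4.89 and 4.47 in shSCR, with detection on the same numbers of arrays and a level at least 1.78-fold higher in KD2. For both keratins KD2 alone stood above all shSCR arrays. Krt19, a keratin detected on all 8 arrays, did not follow, with 7.53 and 7.28 in KD1 and 7.64 and 6.75 in KD2. On the shSCR arrays it had 7.31, 7.60, 7.57 and 7.63, and its differences of -0.11 and 0.53 went opposite ways. Upk3b, a uroplakin gene of mesothelium, had 10.41 and 9.63 in KD1 and 11.16 and 10.90 in KD2, against 9.80, 9.76, 9.47 and 9.41 in shSCR, and Msln, mesothelin, had 6.90 and 7.18 in KD1 and 7.91 and 8.0 in KD2, against 7.11, 6.48, 7.06 and 7.06 in shSCR. Both, named after their values were seen, were highest on the KD2 arrays. Pparg, the nuclear receptor of fat cells, had 6.37 and 6.37 in KD1 and 7.51 and 7.61 in KD2, against 6.32, 6.66, 7.19 and 6.81 in shSCR. Lpl, lipoprotein lipase, had 8.46 and 6.05 in KD1 and 10.43 and 8.21 in KD2, against 8.08, 8.04, 6.45 and 6.41 in shSCR. The defining adipocyte genes Adipoq, Plin1, Fabp4 and Cidec were each detected on 0 of 8 arrays.

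Over the 6 epithelial and mesothelial markers with a probe, 5 were lower in KD1 on both pairs, among them Krt8 and Krt18, which passed the filter through KD2 alone. The summed signal of the 6 markers on the linear scale was 1754 and 1185 on the KD1 arrays and 2950 and 2517 on the KD2 arrays, against 1100 to 1303 on the shSCR arrays. Upk3b alone made up most of this sum on every array, so the sum mainly follows that gene. Of 17 adventitial fibroblast markers 10 were lower and 1 higher in KD1 on both pairs, against 32.9% and 33.6% of all genes. The medians were -0.83 and -0.23, and 4 were lower by at least 2-fold (0.709% of all genes). Of these 4, Dpt was detected on 1 of 2 KD1 arrays and passed the detection filter through KD2 alone. That favours a lower level in KD1, so its direction adds no weight to these counts. The median ctr1-minus-ctr2 difference of this list was 0.42, as large as that of KD1 minus KD2 over the array means (-0.42). Dpt, dermatopontin of the matrix, had 4.99 and 4.61 in KD1 and 7.09 and 6.53 in KD2, against 5.85, 5.32, 4.91 and 5.43 in shSCR. Serpinf1, a secreted serpin that limits vessel growth, had 8.91 and 9.02 in KD1 and 11.39 and 10.73 in KD2, against 10.25, 10.09, 9.87 and 9.84 in shSCR. Fbln1, fibulin of elastic fibres, differed by -1.16 and -1.62 and Ly6c1, a surface antigen, by -1.47 and -1.10. Dpt and Ly6c1 were above shSCR in KD2, and Serpinf1 was in addition below it in KD1. The summed signal of the 8 defining fibroblast markers with a probe was 625.7 and 380.5 on the KD1 arrays and 1268 and 452.7 on the KD2 arrays, against 346.7 to 517.4 on the shSCR arrays. Twist2, a transcription factor of mesenchyme, differed by 0.0 and -0.16. In bulk RNA more cells of a type and more RNA of these genes per cell cannot be told apart, and the part of other cell types in the differences was not tested. Endothelial markers had medians of -0.27 and -0.03 over 7 genes, with Cdh5, Tie1, Vwf and Emcn detected on 0 arrays. Of 3 compared leukocyte markers 1 was lower, and Ptprc, Adgre1 and Itgam were detected on 0 arrays. Their summed signals were 206.3 and 210.4 in KD1 and 226.0 and 223.5 in KD2, against 193.9 to 228.8 in shSCR, for endothelium, and 404.5 and 625.0 in KD1 and 418.0 and 499.9 in KD2, against 469.7 to 632.6 in shSCR, for leukocytes. Most of the leukocyte sum came from a single marker, Cd14.

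Contractile genes did not separate the samples as a group. Of 15 compared genes 7 were higher and 7 lower in KD1 on both pairs, where 33.6% and 32.9% of all genes were, with medians of -0.03 and 0.03. Des, among the 7 lower, was detected on 0 KD1 arrays and passed the detection filter through KD2 alone. The member past 2-fold was Actg2, the enteric smooth muscle actin gene, with 5.90 and 7.06 in KD1 and 8.58 and 10.56 in KD2, against 5.33, 5.61, 6.67 and 6.74 in shSCR. KD2 stood above all shSCR arrays, KD1 overlapped them, and the mean difference was 8.53-fold. On the authors' processed values, whose scale is unstated, the mean difference was -1.56. Acta2, given above, differed by 0.31 and 0.13 and Tagln by 0.11 and 0.29. Csrp1, a cytoskeletal LIM protein gene, had 10.92 and 11.33 in KD1 and 11.16 and 11.58 in KD2, against 10.29, 10.42, 10.56 and 10.63 in shSCR, with both samples above shSCR. Matrix genes were lower in 17 and higher in 11 of 36, against 32.9% and 33.6% of all genes, with 4 lower by at least 2-fold (0.709% of all genes). Col3a1, fibrillar collagen of the vessel wall, had 6.02 and 5.22 in KD1 and 7.63 and 7.17 in KD2, against 6.88, 7.49, 6.27 and 6.53 in shSCR. Col18a1, a basement membrane collagen, differed by -1.30 and -1.37, and Ogn, osteoglycin, by -1.34 and -1.40. Col3a1 was below all shSCR arrays in KD1 and Col18a1 above them in KD2, whereas Ogn overlapped shSCR in both samples.

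By the smaller of the 2 array pairs, the largest difference upward in KD1 was that of Gal3st2, a sulfotransferase gene with near-identical copies that its probe may also read. It had 7.79 and 8.54 in KD1 and 5.66 and 6.40 in KD2, against 4.67, 5.0, 5.99 and 5.94 in shSCR, a mean of 4.4-fold. Nppb, the natriuretic peptide gene, had 7.13 and 9.72 in KD1 and 5.27 and 7.55 in KD2, against 5.32, 5.59, 7.70 and 7.91 in shSCR, a mean of 4.04-fold. Inhba, the activin subunit of the TGF-beta family, had 10.55 and 12.11 in KD1 and 8.91 and 10.68 in KD2, against 10.03, 10.12, 11.32 and 11.14 in shSCR. For Nppb and Inhba the second arrays of both samples and ctr2 stood above the first arrays and ctr1, so the samples differ within an array number while their ranges overlap shSCR. Edn1, the vasoconstrictor endothelin, had 7.41 and 8.78 in KD1 and 6.14 and 7.55 in KD2, against 7.06, 6.88, 7.95 and 7.87 in shSCR. Thbd, thrombomodulin, which turns thrombin towards anticoagulation, had 8.33 and 9.60 in KD1 and 6.90 and 8.18 in KD2, against 7.27, 7.43, 7.92 and 8.77 in shSCR. Cyp1b1, a monooxygenase of steroids and xenobiotics, had 10.22 and 11.42 in KD1 and 8.89 and 9.87 in KD2, against 9.98, 10.25, 11.03 and 11.43 in shSCR. In Cyp1b1 the KD2 arrays were the lowest of the 8 and the KD1 arrays lay among shSCR.

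Among the other genes higher in KD1, Slc24a3, a sodium-calcium-potassium exchanger, had 8.99 and 8.13 in KD1 and 7.08 and 6.60 in KD2, against 6.58, 6.67, 6.66 and 6.01 in shSCR. Clba1, a gene for a clathrin-binding protein, had 8.57 and 8.93 in KD1 and 7.26 and 7.39 in KD2, against 6.87, 7.34, 7.66 and 7.47 in shSCR. Lims2, an adaptor of integrin adhesions, had 8.09 and 9.93 in KD1 and 6.70 and 8.32 in KD2, against 5.97, 6.05, 7.90 and 7.84 in shSCR. KD1 stood above all shSCR arrays in these 3 genes and KD2 overlapped them. Idh1, the cytosolic isocitrate dehydrogenase, had 9.67 and 9.02 in KD1 and 8.39 and 7.55 in KD2, against 9.55, 9.41, 8.45 and 8.46 in shSCR. Zdhhc21, a palmitoyltransferase gene, had 6.66 and 7.51 in KD1 and 5.22 and 6.05 in KD2, against 7.26, 6.96, 7.51 and 7.33 in shSCR. 1600012H06Rik, named by its clone, had 8.17 and 8.13 in KD1 and 5.56 and 6.42 in KD2, against 7.71, 7.76, 7.60 and 8.15 in shSCR, a mean of 4.46-fold, and another of its probes differed by 2.25 and 1.97. In these 3 genes KD2 lay below all shSCR arrays and KD1 overlapped them. Gpnmb, a lysosomal glycoprotein gene, had 7.51 and 8.37 in KD1 and 6.44 and 7.04 in KD2, against 5.48, 5.33, 6.19 and 6.01 in shSCR, with both samples above shSCR.

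Immediate early genes, which follow stimulation within minutes, were higher in KD1 in 15 and lower in 2 of 19 compared genes, where 33.6% and 32.9% of all genes were, with medians of 0.43 and 0.51 and 0 past 2-fold. Jun, a subunit of the AP-1 factor, had 8.37 and 8.51 in KD1 and 7.38 and 7.51 in KD2, against 7.36, 7.21, 7.95 and 8.18 in shSCR. Dusp1, a phosphatase of MAP kinases, had 10.84 and 11.92 in KD1 and 9.86 and 10.92 in KD2, against 9.58, 9.74, 10.77 and 10.84 in shSCR. Fos, the partner of Jun, chosen after its values were seen, had 8.77 and 8.03 in KD1 and 8.06 and 7.39 in KD2, against 7.39, 7.63, 5.98 and 6.39 in shSCR. Both KD1 arrays were above all shSCR arrays for 8 of the 19 genes (19.4% of all genes were), Jun and Fos among them. Both KD2 arrays were above them for 2 of the 19 (14.5% of all genes). Egr1, an early zinc finger factor, differed by 0.18 and -0.27, so the array pairs went opposite ways for it. TGF-beta and BMP genes were higher in 14 and lower in 5 of 23, against the same shares of all genes, with medians of 0.32 and 0.26. Targets of YAP, the effector of the Hippo pathway, were higher in 10 and lower in 1 of 13, with medians of 0.28 and 0.33. Both KD1 arrays were above all shSCR arrays for 3 of these 13, where 19.4% of all genes were. The control samples differed more in the list, with a median ctr1-minus-ctr2 difference of -0.48. Crim1, a binder of BMPs on the YAP list, had 8.08 and 8.86 in KD1 and 6.44 and 7.68 in KD2, against 7.13, 7.67, 8.21 and 8.42 in shSCR, and both samples overlapped shSCR. Glycolysis and hypoxia genes were higher in 13 and lower in 3 of 25, and their median ctr1-minus-ctr2 difference was 0.30. P4ha1, a collagen prolyl hydroxylase, had 8.09 and 8.76 in KD1 and 7.19 and 7.55 in KD2, against 7.24, 7.46, 7.40 and 7.44 in shSCR, with KD1 above all other arrays.

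Lysosomal genes were higher in KD1 in 18 and lower in 3 of 27 on both pairs, against 33.6% and 32.9% of all genes. The medians were 0.14 and 0.20, and 0 were past 2-fold. Ctsf, a lysosomal cysteine protease gene, had 6.46 and 6.29 in KD1 and 5.52 and 5.14 in KD2, against 5.13, 5.22, 5.39 and 4.65 in shSCR. Ctsa, protective protein of the lysosome, had 8.61 and 8.34 in KD1 and 7.78 and 7.52 in KD2, against 7.31, 7.51, 7.30 and 7.27 in shSCR. KD1 arrays were above all shSCR arrays for 17 of the 27 genes and KD2 arrays for 10, where 19.4% and 14.5% of all genes were. Both samples thus stood above shSCR for part of the list and KD1 stood higher.

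**Figure D4:**
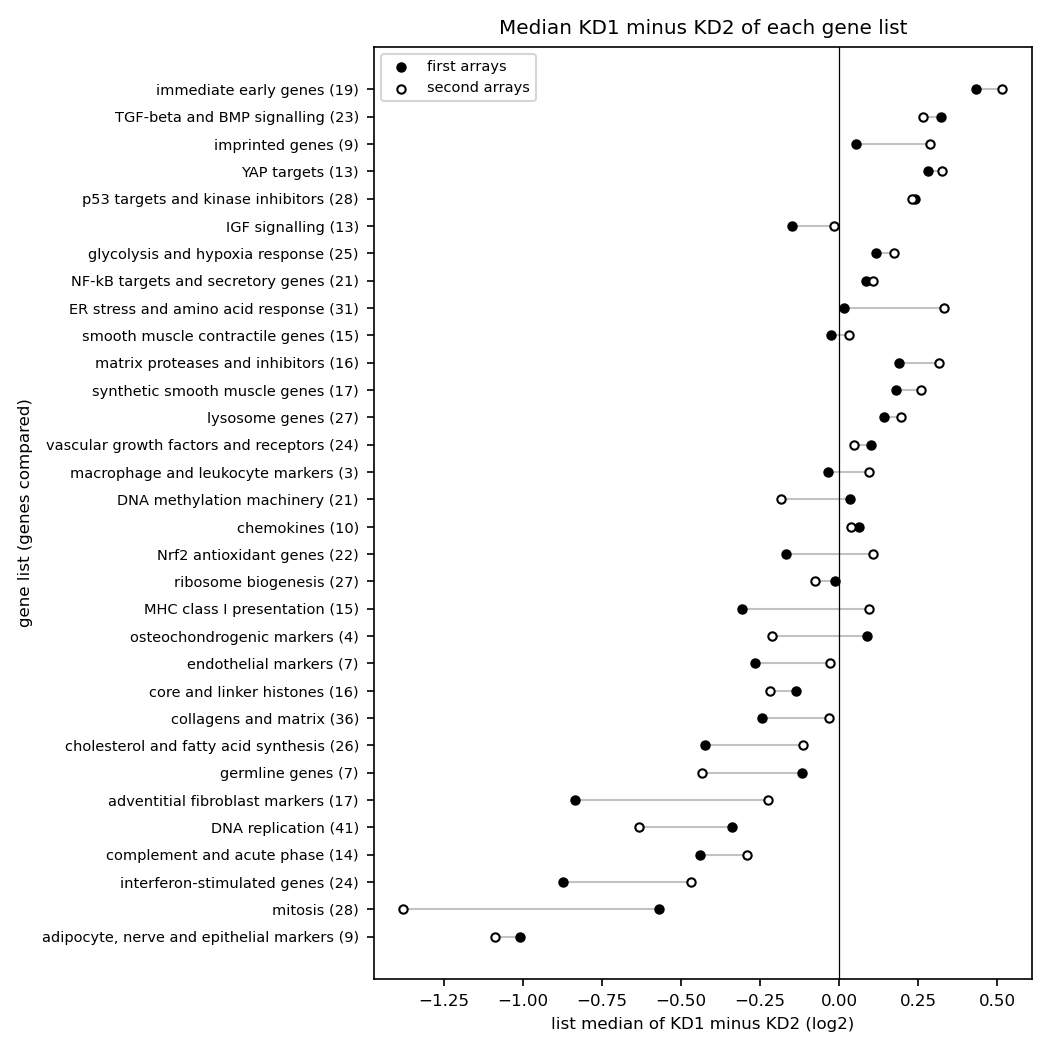
Median of KD1 minus KD2 (log2) for each of 32 gene lists on the first arrays (filled) and the second arrays (open), with the number of compared genes in brackets and lists ordered by the median of the mean difference. Medians ranged from -1.38 for mitosis on the second arrays to 0.51 for immediate early genes on the second arrays.

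Of the genes lower in KD1, the germline gene Rhox5 on the X chromosome, a homeobox gene silenced by DNA methylation in most somatic tissues, had 4.69 and 4.55 in KD1 and 7.59 and 8.04 in KD2, against 5.05, 5.16, 5.82 and 5.55 in shSCR. It was detected on 0 of 2 KD1 arrays and on 2 of 2 KD2 and 4 of 4 shSCR arrays, and was at least 7.96-fold higher in KD2. Rhox5 thus passed the detection filter through KD2 alone. On the authors' processed values the mean difference was -0.74. KD2 was above and KD1 below shSCR. The other 6 compared germline genes were not past 2-fold, and of the 7 in all 1 was higher and 3 were lower on both pairs. Of 9 imprinted genes 6 were higher and 1 lower, led by Grb10, an inhibitor of growth factor receptors, at 0.71 and 0.86. Over all genes 33.6% were higher and 32.9% lower on both pairs. Of 21 genes of the DNA methylation machinery 6 were higher and 6 lower, with medians of 0.03 and -0.18. Of these 21, 13 were below all shSCR arrays in KD1 and 13 in KD2, where 19.5% and 14.2% of all genes were. Uhrf1, the target of the hairpins, is on this list. It is counted among the 6 higher and in the 13 of each sample.

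Nt5e, the ecto-nucleotidase that makes adenosine, had 7.41 and 8.30 in KD1 and 9.58 and 10.43 in KD2, against 8.67, 8.53, 9.37 and 9.30 in shSCR, and another probe of it differed by -0.87 and -1.60. Nrn1, neuritin, a small surface protein of neurons, had 9.24 and 9.60 in KD1 and 11.30 and 11.68 in KD2, against 11.65, 11.81, 11.95 and 12.04 in shSCR. Rab15, a GTPase of endosomes, had 5.74 and 5.01 in KD1 and 7.65 and 7.27 in KD2, against 6.47, 6.44, 5.35 and 5.90 in shSCR. Nrn1 was below shSCR in KD1 and at its lower end in KD2, whereas Rab15 was above shSCR in KD2 alone. Gdf10, a BMP family ligand, had 8.39 and 6.10 in KD1 and 10.69 and 7.96 in KD2, against 8.39, 8.54, 4.73 and 4.91 in shSCR. Rbmx, an RNA-binding splicing protein with retrocopies elsewhere in the genome, had 6.73 and 6.0 in KD1 and 8.61 and 8.59 in KD2, against 8.51, 8.46, 7.74 and 8.05 in shSCR. Akr1c12, an aldo-keto reductase of a family of near-identical genes, had 4.61 and 4.86 in KD1 and 6.45 and 6.58 in KD2, against 5.15, 4.56, 5.57 and 5.30 in shSCR. Gdf10 overlapped shSCR in both samples, Rbmx lay below shSCR in KD1 and above it in KD2, and Akr1c12 was above shSCR in KD2 alone. Slc40a1, the iron exporter ferroportin, had 5.91 and 4.83 in KD1 and 7.56 and 6.08 in KD2, against 5.34, 5.37, 4.54 and 4.89 in shSCR. Its KD2 arrays were above all shSCR arrays. Prl2c3 and Prl2c4, proliferin genes that cannot be told apart by signal with confidence, differed by -1.58 and -2.18 and by -1.62 and -2.16.

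**Figure D5:**
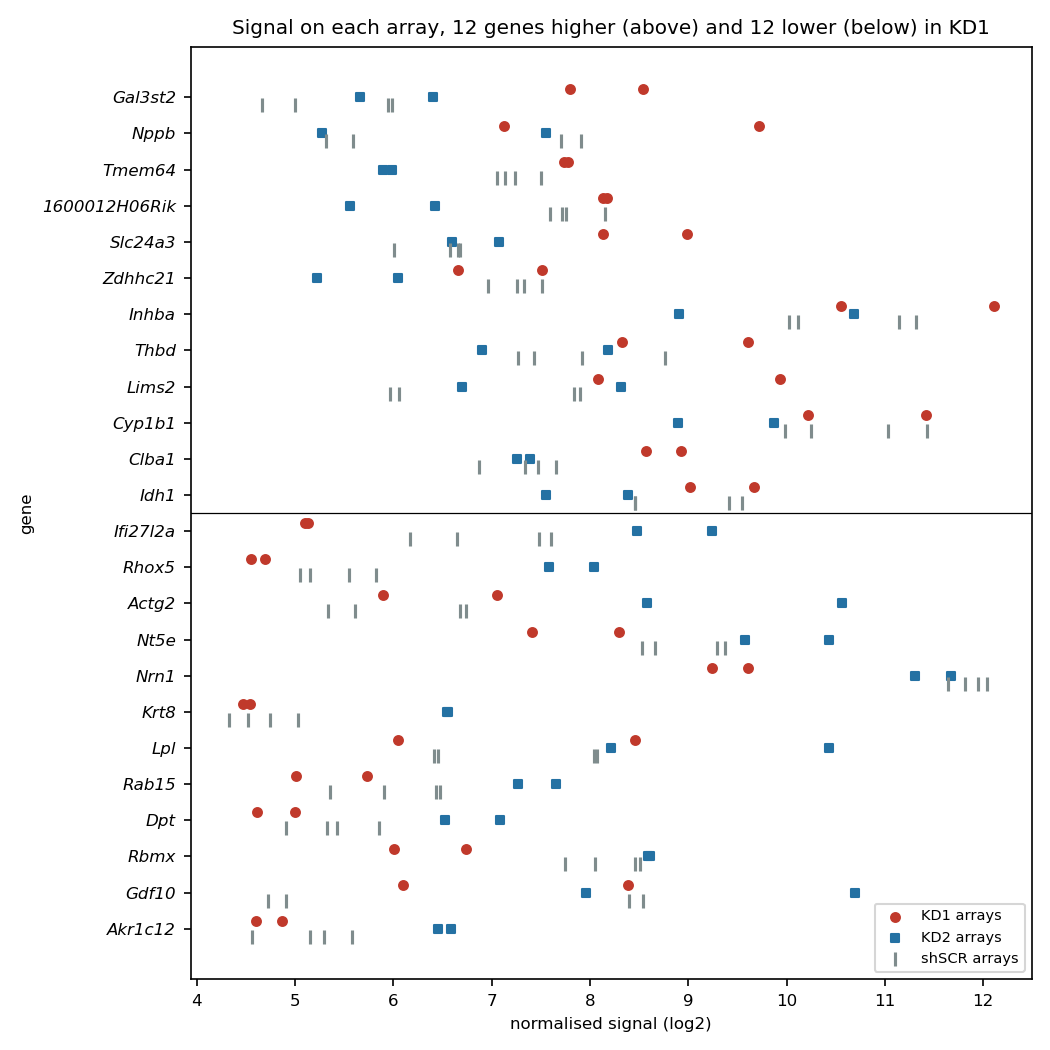
Normalised log2 signal of the 12 genes with the largest difference upward in KD1 (above the line) and the 12 downward (below the line) on each array, with KD1 as red circles, KD2 as blue squares and shSCR as grey ticks. Ifi27l2a, at 5.10 and 5.13 in KD1 and 9.24 and 8.48 in KD2, shows the widest gap, and signals near 4.70 are close to the median of all probes.

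The position against shSCR separates these differences into kinds. Of the 27 genes at least 2-fold higher in KD1, 8 were above all shSCR arrays in KD1 with KD2 overlapping them, 4 were below in KD2 with KD1 overlapping, 3 were above in both, 6 overlapped in both and 6 were above in KD1 and below in KD2. Of the 57 lower in KD1, 19 were below in KD1 with KD2 overlapping, 18 were above in KD2 with KD1 overlapping, 10 overlapped in both and 10 were below in KD1 and above in KD2. Over all genes, 628 (7.81%) were above shSCR in both samples and 621 (7.72%) below in both, whereas 56 (0.696%) were above in KD1 and below in KD2 and 52 (0.647%) the reverse. All of these counts rest on the same shSCR arrays.

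Some genes on opposite sides had well separated arrays. Tmem64, a membrane protein of calcium signalling, had 7.78 and 7.73 in KD1 and 5.99 and 5.89 in KD2, against 7.24, 7.06, 7.50 and 7.13 in shSCR. Cspg4, the pericyte proteoglycan NG2, had 7.17 and 7.95 in KD1 and 5.91 and 6.22 in KD2, against 6.73, 6.38, 6.99 and 6.43 in shSCR. Itgb5, an integrin subunit, had 10.21 and 10.81 in KD1 and 9.12 and 9.61 in KD2, against 9.68, 9.71, 9.87 and 9.98 in shSCR. KD1 was above and KD2 below shSCR in all 3. Serf1, a gene for a small charged protein, differed by 1.68 and 1.26 and Rab1a, a GTPase of early secretion, by 1.15 and 1.09, in the same direction. Gsta3, a glutathione transferase, had 4.87 and 4.72 in KD1 and 6.84 and 6.0 in KD2, against 5.59, 5.69, 5.34 and 5.08 in shSCR, with KD1 below and KD2 above. It was detected on 1 of 2 KD1 arrays and passed the detection filter through KD2 alone.

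In 5 of the 57 genes lower in KD1 the KD1 sample was detected on 0 arrays, so that its level is only bounded. A further 8 were detected on 1 KD1 array: Akr1c12, Aspm, Dpt, Gsta3, Il33, Slc40a1, Tnfrsf4 and Tspan8. The 5 and the 8 all passed the detection filter through KD2 alone, which favours a lower level in KD1. Among the 27 higher in KD1, 1 gene was detected on 1 KD2 array and passed through KD1 alone. The bound was under 2-fold for Krt18 and for Prl, the prolactin gene (at least 1.82-fold), which leaves 55. In 44 of the 57 and 26 of the 27 all 4 knockdown arrays detected the gene. The remaining lists gave smaller or mixed differences. The counts below are of genes higher or lower in KD1 on both pairs, where 33.6% and 32.9% of all genes were. Cholesterol and fatty acid synthesis was lower in 16 and higher in 6 of 26, with medians of -0.42 and -0.12, led by Fads2, a fatty acid desaturase, at -0.96 and -0.67, and the median ctr1-minus-ctr2 difference was 0.54. Complement and acute phase genes were lower in 9 and higher in 2 of 14, with medians of -0.44 and -0.29. Matrix proteases were higher in 8 and lower in 2 of 16, and synthetic smooth muscle genes higher in 9 and lower in 3 of 17. ER stress genes were higher in 16 and lower in 3 of 31, with a first-array median of 0.02 and a median ctr1-minus-ctr2 difference of 0.46. Ribosome biogenesis was higher in 7 and lower in 12 of 27, the Nrf2 genes in 6 and 8 of 22, and MHC class I presentation in 5 and 3 of 15. NF-kB targets were higher in 12 and lower in 8 of 21, chemokines in 5 and 3 of 10, IGF signalling in 4 and 5 of 13 and vascular growth factors in 9 and 6 of 24. Of 4 osteochondrogenic markers 1 was lower.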

How the data were processed

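RNA was measured on Illumina bead arrays, per the labels. The deposited signal is an intensity per probe and array on a linear scale, not normalised between arrays, with a detection p-value beside it, per the file headers. A second deposited table holds the authors' values on an unstated scale, with a median of 7.86 per array. Over probes with a signal above 1000, the authors' values rose by 0.975 to 1.03 per unit of log2 of the deposited signal and were read as log2; GenomeStudio 2011.1 and lumi are named in the submitters' processing notes. The sources used here do not say if background had been subtracted. In the deposited table, 1 entry of the second arrays' detection columns was shifted and 1 was unreadable. These 2 probes were left out. The other detection values of those columns were used as deposited.

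From these, signals were corrected with normexp by detection p (offset 16), quantile-normalised and log2-transformed (neqc, limma 3.58.1, R 4.3.3). Of 25669 probes, 23950 had 1 gene symbol in the platform annotation, 0 several and 1719 none, and 676 of the compared probes had no symbol. In 679 of 2139 genes with several compared probes, the probes differed in sign. Columns were assigned to samples by their names. The limma fit used the mean of each sample's 2 arrays, with levels KD1, KD2 and shSCR, and Benjamini-Hochberg adjustment over all 11714 compared probes; its residual spread comes from ctr1 and ctr2 alone. It was tested on simulated data. A probe undetected in 1 sample has only a bound there, the mean over the arrays of the lowest detected signal or the probe's own, whichever is higher. The number of arrays limits the precision.

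Genes were named by the smaller of the 2 paired differences: the 12 highest and 12 lowest, up to 4 per list, and up to 5 on opposite sides of shSCR in either direction. Other genes were named after their values were seen. The samples, the 32 gene lists and this rule were chosen with earlier results of these data known. Alternatives changed the normalisation, the detection filter, the probe per gene, the fold, the arrays used and the replicate block.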

Additional observations from a re-analysis of the deposited data

Results flagged for a closer look

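In 12 named genes both KD1 arrays and both KD2 arrays lay on opposite sides of all 4 shSCR arrays. The rule for naming genes looked for this position, so the count of 12 follows largely from the choice of genes. It says nothing about how common such genes are. In these genes KD1 and KD2 differed from the controls in opposite directions. None of these differences between the samples was tested beyond the limma fit, in which 0 genes passed. Over all 8042 genes 56 (0.696%) had KD1 above and KD2 below, and 52 (0.647%) the reverse. With KD1 above and KD2 below, the mean differences (KD1 minus KD2, log2) were 1.82 for Tmem64, 1.498 for Cspg4, 1.47 for Serf1, 1.15 for Itgb5 and 1.12 for Rab1a. With KD1 below and KD2 above, they were -3.74 for Ifi27l2a, -3.20 for Rhox5, -2.23 for Rbmx, -2.16 for Nt5e, -2.09 for Serpinf1, -1.62 for Gsta3 and -0.92 for Tk1. Rhox5 was detected on 0 KD1 arrays, so the value is that of the normalised signals, and the level in KD2 was at least 7.96-fold higher. Gsta3 was detected on 1 of 2 KD1 arrays. Both genes passed the detection filter through KD2 alone, which favours a lower level in KD1.

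The medians of 3 gene lists also stood on opposite sides of the shSCR mean on both arrays of both samples, and this was not tested. The median difference was 0.22 for glycolysis and hypoxia genes, which were higher in KD1. It was -0.42 for adventitial fibroblast markers and -1.01 for the adipocyte, nerve and epithelial markers, which were higher in KD2. In the alternatives these medians ranged from 0.05 to 0.25, from -1.24 to -0.17 and from -1.19 to -0.04, and the median ctr1-minus-ctr2 differences of the lists were 0.30, 0.42 and -0.14.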

How the results depend on the processing

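The counts of genes at least 2-fold higher and lower in KD1 (27 and 57) moved most with the scale of the values. They were 6 and 13 on quantile-normalised signals without background correction, 1 and 6 on the authors' processed values, 209 and 286 at 1.5-fold and 4 and 15 at 3-fold. Leaving out arrays (the first or second of all samples, or 1 of KD1 or KD2) gave 34 to 116 higher and 51 to 248 lower genes. Where 1 array of KD1 or KD2 was left out, the remaining array was set against both arrays of the other sample. Those alternatives therefore mix array numbers and are not the same comparison. Median scaling, other detection filters and the mean over probes kept both counts within 1.5 times. limma called 0 genes under every normalisation, filter and left-out array. It called 15 with the 8 arrays as separate samples and no replicate block, 39 with the replicate block, and 77 in the 4 shUHRF1 arrays alone with the replicate block, an alternative added after the data were seen. These fits measure the spread between arrays, not samples. The labels do not say what the array numbers share, and the first-minus-second differences of KD1 and KD2 correlated at r = 0.566 across genes but those of other sample pairs at 0.114 to 0.155. The Uhrf1 difference lay between 0.15 and 1.01 with arrays left out. Leaving out ctr1 or ctr2 as a whole leaves no residual degrees of freedom and was not run. Of the 84 genes past 2-fold, Fmo1 (-1.53) changed sign, to 0.02 without the second array of KD1 and 0.33 without the first of KD2. Both of these values mix array numbers. The medians of mitosis (-1.38 to -0.56), DNA replication (-0.66 to -0.24), interferon-stimulated (-1.15 to -0.16) and immediate early genes (0.24 to 0.51) kept their sign in 13 of 13 settings.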
